A study of Mus musculus with 7 samples.

Results

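A group of 9 genes of blood progenitors and T cell leukaemia was followed across the thymus of wild type mice and of mice whose Ikaros protein lacks 1 of its DNA-binding zinc fingers. They are Kit, Cd44, Lyl1, Lmo2, Tal1, Hhex, Mef2c, Erg and Myb, taken by name from an expression table of 16734 genes, and all 9 of 9 names were found. Ikaros, made from the gene Ikzf1, is a zinc finger transcription factor that binds DNA with a GGGAA core and is needed for the orderly development of lymphocytes. The 7 libraries were of polyadenylated RNA from whole thymus at 4 weeks of age. The 3 wild type libraries (1, 2A and 2B) came from C57BL/6 mice. The 2 Ikaros ZnF1-/- libraries (1 and 2) and the 2 Ikaros ZnF4-/- libraries (1 and 2) carried the germline loss of the first or the fourth finger, on a background that the labels do not name. The replicate 1 libraries have 76 bp reads from a GAIIx and the others 50 bp reads from a HiSeq, so a replicate number marks a sequencing batch. Levels are in RPKM, reads over exons scaled to exon length and to the mapped reads of the library, which allows genes of different length to be compared.

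Early thymic progenitors carry the stem cell factor receptor KIT and the hyaluronan receptor CD44, and both receptors are lost as cells commit to the T lineage and become CD4+CD8+ double-positive thymocytes, the most numerous cells of the thymus. TAL1 and LYL1 are basic helix-loop-helix factors that act with E proteins and the bridging protein LMO2 in early progenitors, and each of these genes, when left on in thymocytes, drives T cell acute lymphoblastic leukaemia. HHEX, MEF2C and ERG are transcription factors of progenitors that have been tied to immature forms of the same disease, while MYB works in progenitors and in developing thymocytes alike.

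In ZnF4-/- thymus Kit RNA rose 2.06-fold over wild type, the only one of the genes past the threshold in the fit without a batch term. With the replicate number as a block, Myb also fell in ZnF4-/- thymus and Cd44 rose in ZnF1-/- thymus. Lmo2, Tal1, Hhex, Mef2c and Erg lay under the filter of 1 RPKM on the mean over the libraries and were not tested in that fit. The genes with a call are described first by their promoters, since Ikaros binds DNA with a GGGAA core. Whether the removed fingers are needed to bind that core was not tested.

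The 250 bases before the annotated start were read from RefSeq's mouse promoters (build GRCm38.p6) on the strand of each gene, and GGGAA or its complement TTCCC is in capitals. The letters GGGAA include GGAA, the core bound by ETS factors such as ERG. Kit is shown with 1 of its annotated starts.
Kit, chr5:75574741-75574990, plus strand: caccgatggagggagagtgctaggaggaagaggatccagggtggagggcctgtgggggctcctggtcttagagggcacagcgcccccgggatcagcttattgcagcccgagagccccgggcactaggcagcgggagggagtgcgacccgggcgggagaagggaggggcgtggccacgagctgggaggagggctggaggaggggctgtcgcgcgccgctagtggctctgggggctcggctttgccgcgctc
Cd44, chr2:102901666-102901915, minus strand: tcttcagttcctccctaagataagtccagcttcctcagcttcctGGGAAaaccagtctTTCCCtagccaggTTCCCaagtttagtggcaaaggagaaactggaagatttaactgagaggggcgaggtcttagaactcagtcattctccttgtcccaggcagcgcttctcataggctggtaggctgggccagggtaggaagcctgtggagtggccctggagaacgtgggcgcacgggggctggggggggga
Myb, chr10:21160985-21161234, minus strand: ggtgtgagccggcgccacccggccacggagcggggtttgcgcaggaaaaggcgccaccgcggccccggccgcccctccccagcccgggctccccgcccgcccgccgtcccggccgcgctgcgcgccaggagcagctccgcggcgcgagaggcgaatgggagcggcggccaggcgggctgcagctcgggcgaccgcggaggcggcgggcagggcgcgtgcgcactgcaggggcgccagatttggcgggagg
The Cd44 window held 3 matches on either strand, with their first bases at positions -206, -192 and -179 from the start. The Kit and Myb windows held none, which says only that these letters are not in them. Promoters were found for 8 of the 9 genes, and 4 of them (Cd44, Tal1, Mef2c and Erg) held a match in at least 1 promoter. Counted by promoter, 6 of their 14 did, beside 56.2% of all 32851 RefSeq promoters in the same 250 bases, so a match is common. No binding was measured here.

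The genes spanned a wide range of levels. Myb was the most abundant, at 146 to 250 RPKM over the 7 libraries, above 99.7% of the table's genes. Cd44 followed at 4.33 to 9.44 RPKM and Kit at 2.02 to 4.69 RPKM. Within wild type the Cd44 and Kit ranges did not overlap. Lyl1 had a mean of 1.12 RPKM. Mef2c, Erg, Hhex and Lmo2 had means from 0.54 to 0.40 RPKM and overlapping ranges, and their order is not resolved. Tal1 was lowest, between 0.01 and 0.11 RPKM.

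**Figure D1:**
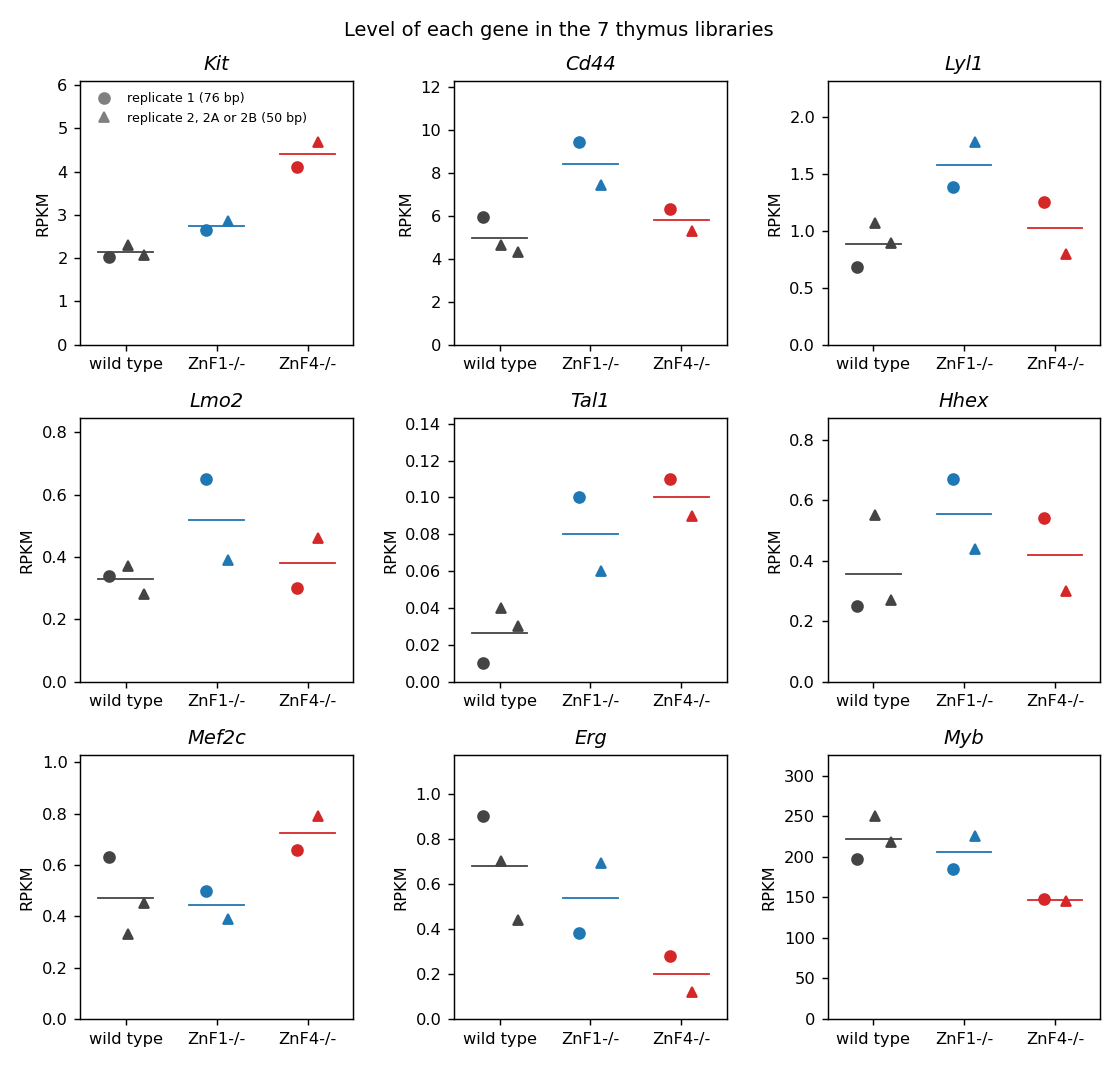
Level of each gene in RPKM (vertical axis, linear from 0, its own scale per panel) in each of the 7 libraries, by genotype. Circles are the 76 bp libraries, triangles the 50 bp libraries and lines the group means; both ZnF4-/- libraries stand above all others for Kit, at 4.12 and 4.69 RPKM.

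Kit encodes the tyrosine kinase receptor for stem cell factor, and lies at chr5:75970941-76052747 on the plus strand (build mm9, GENCODE annotation). Its level was 2.02, 2.31 and 2.08 RPKM in wild type replicates 1, 2A and 2B. It was 2.66 and 2.85 RPKM in ZnF1-/- replicates 1 and 2. In ZnF4-/- replicates 1 and 2 it was 4.12 and 4.69 RPKM. The 3 genotypes formed separate ranges, with both ZnF4-/- libraries highest and both ZnF1-/- libraries between them and wild type. Means were 2.14 ± 0.15 (SD, n = 3) in wild type, 2.76 ± 0.13 (SD, n = 2) in ZnF1-/- and 4.41 ± 0.40 (SD, n = 2) in ZnF4-/-.

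On the scale of log2(RPKM + 0.5), which understates changes of low genes, Kit was higher in ZnF4-/- than in wild type by 0.89 ± 0.15 (SE; limma, Benjamini-Hochberg adjusted p = 0.0267). Of the 10498 genes tested in this comparison 2.54% were called, and 1 of the 4 tested genes of the group was. With the block the difference was 0.91 ± 0.13 (SE; adjusted p = 0.00384). Within the 76 bp libraries it was 0.87 and within the 50 bp libraries 0.95. Leaving out any 1 of the 7 libraries without the block ended the call (adjusted p from 0.0508, without ZnF1 replicate 1, to 0.223, without ZnF4 replicate 2), whereas the call stood in all 11 blocked fits (adjusted p up to 0.0291).

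Kit in ZnF1-/- was 0.30 ± 0.15 above wild type (SE; adjusted p = 1.00, limma), and its 95% interval ran from -0.05 to 0.66. The direct comparison put ZnF4-/- above ZnF1-/- by 0.59 ± 0.16 (SE; adjusted p = 0.179, limma), and by 0.59 ± 0.14 with the block (adjusted p = 0.0418), a call made in 3 of 11 blocked fits. The 76 bp libraries gave 0.55 and the 50 bp libraries 0.63 for that difference. The ligand of the receptor, Kitl, was listed at no more than 0.09 RPKM in any library.

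Cd44, on the minus strand at chr2:102651298-102741822 (mm9), encodes an adhesion receptor of progenitors and of activated and memory T cells. It stood at 5.95, 4.62 and 4.33 RPKM in wild type replicates 1, 2A and 2B. ZnF1-/- replicates 1 and 2 had 9.44 and 7.41 RPKM. ZnF4-/- replicates 1 and 2 had 6.31 and 5.27 RPKM. Both ZnF1-/- libraries were above all others, and the ZnF4-/- libraries overlapped wild type. The means were 4.97 ± 0.86 (SD, n = 3) in wild type, 8.43 ± 1.44 (SD, n = 2) in ZnF1-/- and 5.79 ± 0.74 (SD, n = 2) in ZnF4-/- RPKM.

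The excess of Cd44 in ZnF1-/- over wild type was 0.71 ± 0.19 on the log2 scale (SE; adjusted p = 0.614, limma), which did not pass. That fit called 0.0857% of the 10498 genes (404 had an unadjusted p under 0.05), and 0 of the 4 tested genes here, of which Cd44 had such a p. Lyl1 had one too, but entered the test through its ZnF1-/- libraries, and is not counted. With the block it was 0.66 ± 0.11 (SE; adjusted p = 0.0393), in a fit that called 0.876% of genes and 1 of these 4. The difference within batches was 0.62 at 76 bp and 0.67 at 50 bp. Without the filter on low values the blocked fit called 0.126% of genes and lost Cd44 (adjusted p = 0.119). The call stood in 5 of 11 blocked fits and was lost on leaving out either ZnF1-/- library or any 1 of the 3 wild type libraries, with adjusted p values from 0.0837 (without wild type replicate 2A) to 0.398 (without ZnF1 replicate 1).

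Between the mutants Cd44 was lower in ZnF4-/- than in ZnF1-/- by 0.50 ± 0.21 (SE; adjusted p = 0.518, limma). With the block the fold change was -0.50 ± 0.12 (adjusted p = 0.0415), called in 4 of 11 blocked fits. Against wild type, ZnF4-/- differed by 0.21 (95% interval -0.24 to 0.65; adjusted p = 0.924). Kit and Cd44, which mark the same early stages, thus had their highest levels in different mutants. Of the ligands of CD44 and the enzymes that make hyaluronan, Spp1 was the only one to pass the filter. It ranged from 0.07 to 6.17 RPKM among the wild type libraries alone and was not called in any comparison. Has1 and Has2 were at or below 0.03 RPKM, and Has3 between 0.37 and 0.66 RPKM.

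Lyl1, at chr8:87225356-87228614 (mm9, plus strand), encodes the TAL1-related factor of early thymic progenitors. It stood at 0.68, 1.07 and 0.89 RPKM in wild type replicates 1, 2A and 2B, and at 1.38 and 1.78 RPKM in ZnF1-/-. ZnF4-/- replicates had 1.25 and 0.80 RPKM. Both ZnF1-/- libraries were above the wild type range, whereas the ZnF4-/- libraries fell on either side of the highest wild type value. The gene passed the filter on low values with the help of the ZnF1-/- libraries. Its difference in ZnF1-/- was 0.60 ± 0.23 (SE; adjusted p = 1.00, limma, and 0.388 with the block), and 0.67 and 0.63 within the 76 bp and 50 bp libraries. In ZnF4-/- the difference was 0.57 at 76 bp and -0.18 at 50 bp, so its direction differed between batches. The annotated exons overlap those of Nfix, on the other strand, by 4 bases.

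Lmo2 (chr2:103798143-103822035, mm9) encodes the bridge between the DNA-binding members of the complex. It had 0.34, 0.37 and 0.28 RPKM in wild type 1, 2A and 2B, 0.65 and 0.39 RPKM in ZnF1-/-, and 0.30 and 0.46 RPKM in ZnF4-/-. The lower ZnF1-/- library was just above the highest wild type library, and ZnF4-/- overlapped wild type. Tal1 (chr4:114729031-114744360, mm9), the founding leukaemia gene of the family, had 0.01, 0.04 and 0.03 RPKM in wild type. ZnF1-/- replicates had 0.10 and 0.06 RPKM and ZnF4-/- replicates 0.11 and 0.09 RPKM. All 4 mutant libraries were above all 3 wild type libraries, but at levels that few reads support. In the 76 bp libraries the Tal1 values correspond to an estimated 1, 6 and 3 reads in wild type, ZnF1-/- and ZnF4-/-. Their exact 95% Poisson intervals overlap (0.000301 to 0.0663, 0.037 to 0.22 and 0.0235 to 0.334 RPKM), which is not a test of the difference. In the fit without a filter its adjusted p in ZnF4-/- against wild type was 0.118.

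Hhex (chr19:37507377-37515218, mm9), a homeobox gene of progenitors, had 0.25, 0.55 and 0.27 RPKM in wild type, 0.67 and 0.44 RPKM in ZnF1-/- and 0.54 and 0.30 RPKM in ZnF4-/-. Both mutants overlapped wild type. Mef2c (chr13:83643033-83806684, mm9), a MADS-box factor of lymphoid progenitors and B cells, had 0.63, 0.33 and 0.45 RPKM in wild type and 0.50 and 0.39 RPKM in ZnF1-/-. In ZnF4-/- it had 0.66 and 0.79 RPKM. Its ZnF4-/- libraries were above the wild type range, the lower of them only just. The Mef2c difference in ZnF4-/- was 0.04 within the 76 bp libraries and 0.54 within the 50 bp libraries, and its adjusted p in the fit without a filter was 0.434.

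Erg, on the minus strand at chr16:95580776-95808200 (mm9), encodes an ETS factor of stem cells and early thymocytes. It was at 0.90, 0.70 and 0.44 RPKM in wild type 1, 2A and 2B and at 0.38 and 0.69 RPKM in ZnF1-/-. ZnF4-/- replicates had 0.28 and 0.12 RPKM, the lowest of the 7. The ZnF4-/- mean of 0.20 ± 0.11 (SD, n = 2) compares with 0.68 ± 0.23 (SD, n = 3) in wild type. The log2 difference was -0.84 within the 76 bp libraries and -0.78 within the 50 bp libraries. Erg was under the filter. In the fit without a filter, which called 3.73% of 16660 genes in this comparison, its adjusted p was 0.177 (0.125 with the block, where 7.14% were called). The 76 bp values correspond to an estimated 40 reads in wild type and 4 in ZnF4-/-. Their exact 95% Poisson intervals were 0.636 to 1.21 and 0.0776 to 0.729 RPKM. These overlap, but overlap of separate intervals is not a test of the difference. In ZnF1-/- the difference had opposite signs in the batches (-0.67 at 76 bp and 0.16 at 50 bp).

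Myb (chr10:20844736-20880790, mm9, minus strand) encodes the factor needed at several steps of thymocyte development. Wild type replicates 1, 2A and 2B had 197, 250 and 218 RPKM. ZnF1-/- replicates had 186 and 226 RPKM. The ZnF4-/- libraries were the lowest, at 147 and 146 RPKM. The mean was 222 ± 26.6 (SD, n = 3) in wild type and 147 ± 1.24 (SD, n = 2) in ZnF4-/-, and the groups did not overlap. The difference was -0.59 ± 0.19 on the log2 scale (SE; adjusted p = 0.264, limma). With the block it was -0.56 ± 0.12 (SE; adjusted p = 0.0243), in a fit that called 8.22% of genes and 2 of the 4 tested genes here. It was -0.42 within the 76 bp libraries and -0.68 within the 50 bp libraries.

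The Myb call did not stand in every blocked fit. It was kept in 6 of 11, and lost without the filter on low values (adjusted p = 0.0737). Leaving out wild type 2A gave an adjusted p of 0.0668, wild type 2B 0.0776, ZnF1 replicate 2 0.0501 and ZnF4 replicate 2 0.167. Between ZnF4-/- and ZnF1-/- the difference was -0.48 (adjusted p = 0.546, limma, and 0.0670 with the block, with a call in 3 of 11 blocked fits). In ZnF1-/- against wild type it was -0.11 (95% interval -0.55 to 0.33). The exons of Myb overlap those of Gm16786, a lincRNA on the other strand, by 491 bases. Whether the library kept strand is not given in the sources used here, so reads of the lincRNA could be counted with Myb.

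**Figure D2:**
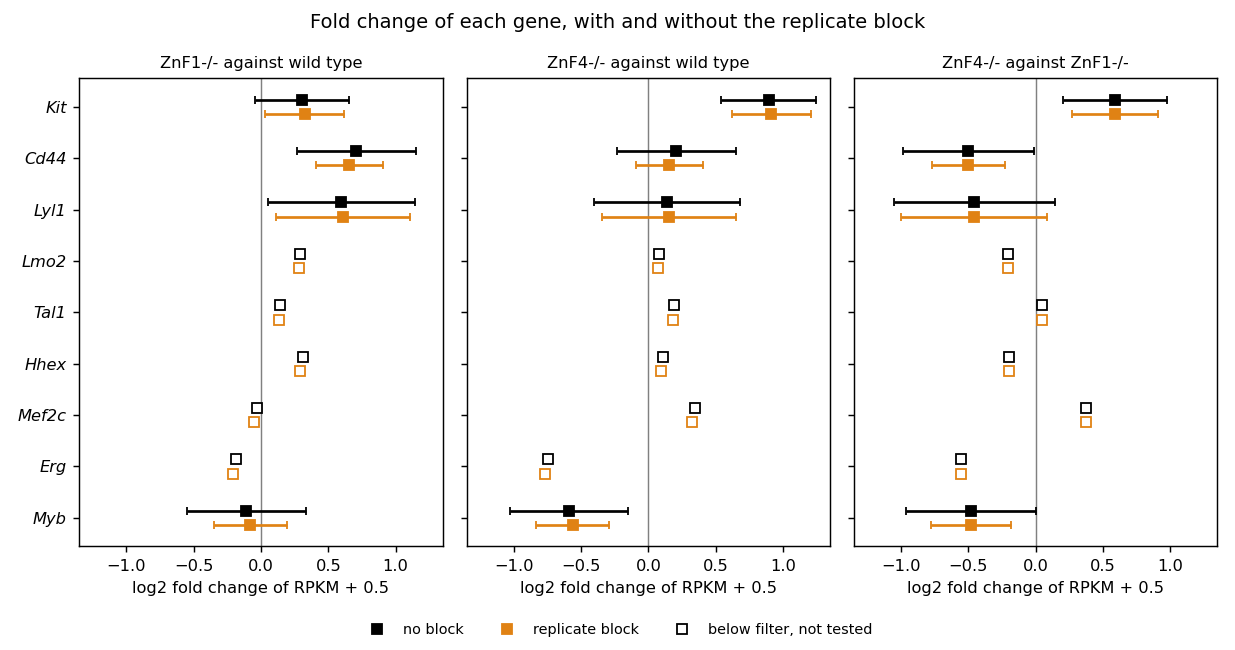
Difference on the log2(RPKM + 0.5) scale (horizontal axis) for each gene in the 3 comparisons, from limma without (black) and with (orange) the replicate block. Bars are 95% intervals of the 4 tested genes, and open squares are genes below the filter; in ZnF4-/- against wild type the Kit interval lies above 0 in both fits.

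Across the 9 genes, ZnF1-/- libraries lay wholly above wild type for 5 (Kit, Cd44, Lyl1, Lmo2 and Tal1) and wholly below for 0. Of all 16734 genes, 7.54% lay wholly above and 15.3% did not overlap in either direction. In ZnF4-/- against wild type 5 did not overlap, with Kit, Tal1 and Mef2c higher and Erg and Myb lower, where 25.2% of the table did not overlap. Between the mutants 6 did not overlap (Kit and Mef2c higher in ZnF4-/-, Cd44, Lyl1, Erg and Myb lower), against 32.6% of the table. That last comparison called 2.34% of tested genes without the block and 7.29% with it, and 0 and 2 of the 4 tested genes here (Kit and Cd44, the 2 with an unadjusted p under 0.05 in the unblocked fit). The median log2 difference of the 9 genes was 0.29 in ZnF1-/- and 0.14 in ZnF4-/- against wild type, where the median of all genes was -0.0095 and -0.0046. The 2 comparisons share the wild type libraries.

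**Figure D3:**
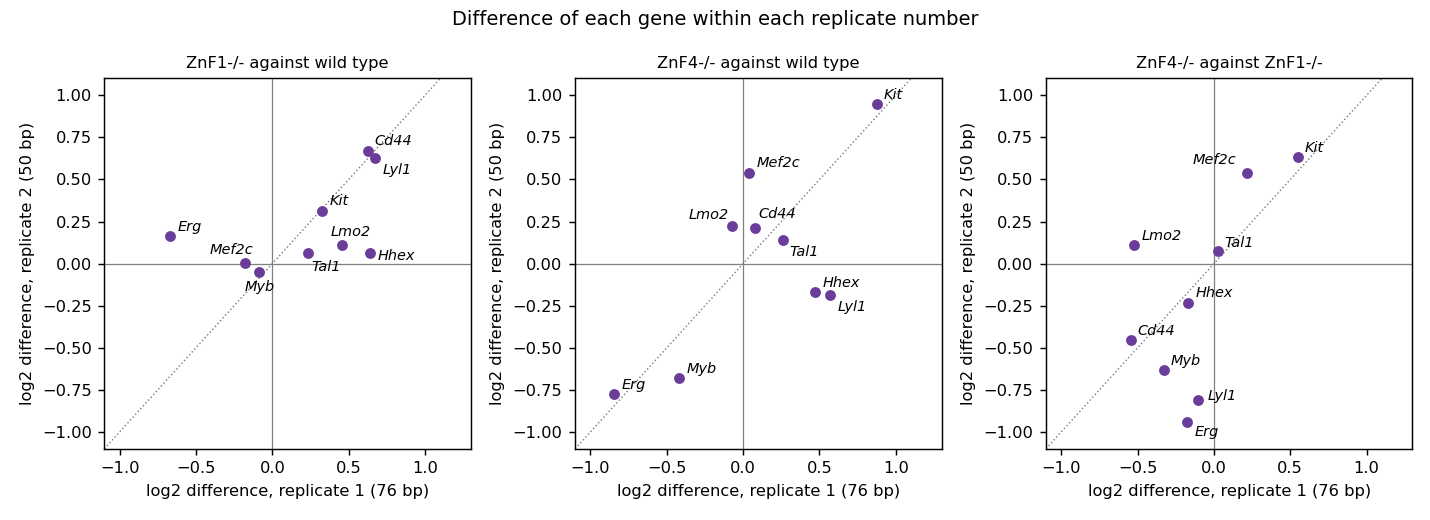
Log2(RPKM + 0.5) difference of each gene within the 76 bp libraries (horizontal axis) and within the 50 bp libraries (vertical axis, with wild type 2A and 2B averaged), 1 panel per comparison, with a dotted line of equality. Kit lies near the line in all 3 panels, at 0.87 and 0.95 in ZnF4-/- against wild type, and Erg in ZnF1-/- lies on opposite sides of 0 at -0.67 and 0.16.

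Other genes of early thymocytes were read from a list of 25, of which 24 were in the table and 16 passed the filter. Without the block 0 of 16 were called against wild type in either mutant by limma (at an unadjusted p under 0.05, 1 was lower in ZnF1-/-, and 3 were higher and 1 lower in ZnF4-/-). The same p was reached by 3.85% of all tested genes for ZnF1-/- and 10.1% for ZnF4-/- set against wild type, and by 9.17% between the mutants. With the block Il7r and Dtx1 rose and Ccr9 fell in ZnF4-/-, and Sox13 fell in ZnF1-/-. That fit called 8.22% of all tested genes for ZnF4-/- and 0.876% for ZnF1-/- against wild type. Il7r encodes the interleukin 7 receptor and went from 15.4 ± 0.58 (SD, n = 3) in wild type to 24.2 ± 6.38 RPKM (SD, n = 2) in ZnF4-/- (blocked difference 0.64, adjusted p = 0.0269). Dtx1, a Notch target, rose from 7.40 ± 2.63 to 16.1 ± 3.88 RPKM (blocked difference 1.20, adjusted p = 0.0455). Ccr9, a homing receptor of thymocytes, fell from 316 ± 25.2 to 190 ± 25.7 RPKM (blocked difference -0.73, adjusted p = 0.0110). Over the 11 blocked fits the calls of Il7r, Dtx1 and Ccr9 stood in 7, 7 and 9. The blocked Il7r difference was 0.35 when ZnF4 replicate 2 was left out and 0.88 when replicate 1 was. For Dtx1, leaving out ZnF4 replicate 1 gave 0.56 and replicate 2 gave 1.99.

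Sox13, a factor of the gamma delta T lineage, had 2.91, 4.12 and 4.26 RPKM in wild type and 1.40 and 1.79 RPKM in ZnF1-/-. ZnF4-/- replicates had 4.22 and 4.56 RPKM. ZnF1-/- was wholly below the other groups, and ZnF4-/- overlapped wild type. Sox13 was higher in ZnF4-/- than in ZnF1-/- by 1.23 (adjusted p = 0.0331 without and 0.00199 with the block, called in all 11 blocked fits). Without the block that call ended on leaving out any library other than wild type replicate 1 (adjusted p from 0.0646, without wild type 2A, to 0.231, without ZnF4 replicate 2). In ZnF1-/- against wild type the blocked difference was -0.97 (adjusted p = 0.0242, called in 5 of 11). Ptcra, the pre-T cell receptor alpha chain, and Dtx1 were also called higher in ZnF4-/- than in ZnF1-/- with the block, by 0.86 and 1.69, in 6 and 8 of 11 blocked fits. Without ZnF4 replicate 1 these were 0.52 and 0.97, and without ZnF4 replicate 2 they were 1.21 and 2.40. Without ZnF1 replicate 1 neither was called (adjusted p = 0.363 and 0.166). Between the mutants the blocked fit called 7.29% of all tested genes. The median difference of the 16 genes was 0.07 in both mutants against wild type, beside -0.02 and -0.05 for all tested genes.

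Several partners of TAL1 and LMO2 were abundant, others near-silent. Ldb1, which binds LMO2, had 110 to 195 RPKM, and Tcf3 and Tcf12, which encode E proteins, had 30.5 to 65.7 and 76.4 to 107 RPKM. Of the 12 tested partners limma called 0 in any comparison without the block. At an unadjusted p under 0.05, 2 were higher and 1 lower in ZnF4-/- than in wild type, and 0 passed in the other comparisons, beside the shares of all tested genes given for the early list. Tcf4, another E protein gene, rose with the block in ZnF4-/-, from 6.87 ± 0.15 (SD, n = 3) to 11.3 ± 3.55 RPKM (SD, n = 2; blocked difference 0.68, adjusted p = 0.0290), in 6 of 11 blocked fits. Without ZnF4 replicate 2 it was 0.37 (adjusted p = 0.211). Gata1, a partner and an erythroid factor under the filter, was at 0.51 to 1.77 RPKM. Gata2, a partner and a progenitor factor under the filter, had 0.00, 0.02 and 0.02 RPKM in wild type, 0.00 and 0.01 RPKM in ZnF1-/- and 0.20 RPKM in both ZnF4-/- libraries. It was singled out after its values were seen.

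Among relatives of the genes, 14 of 16 were in the table and 9 were tested. Pdgfrb, which encodes a receptor kinase of the family of KIT, had 1.13, 1.68 and 1.06 RPKM in wild type, 2.30 and 3.17 RPKM in ZnF1-/- and 5.62 and 3.21 RPKM in ZnF4-/-. The 3 ranges were separate, those of the mutants only just (3.17 against 3.21 RPKM). The mutants did not differ by a call (adjusted p = 0.721, limma, and 0.312 with the block). Pdgfrb rose in ZnF4-/- over wild type by 1.43 (adjusted p = 0.0452 without the block and 0.0129 with it). Leaving out any 1 of the 7 libraries without the block ended the call (adjusted p from 0.0606, without ZnF1 replicate 1, to 0.308, without ZnF4 replicate 1), and it stood in 9 of 11 blocked fits, with differences from 0.98 without ZnF4 replicate 1 to 1.97 without ZnF4 replicate 2. Flt3, another such receptor of early progenitors, was at 0.34 to 0.63 RPKM. The relatives Lmo1 and Tal2 were at most 0.20 RPKM, and Fli1, the relative of Erg, was at 32.6 to 45.1 RPKM with no call.

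Of 35 other genes of T cell leukaemia, 33 were in the table and 28 were tested. Without the block 0 of 28 passed in any comparison by limma. At an unadjusted p under 0.05, 5 were higher and 1 lower in ZnF4-/- than in wild type, 3 were higher in ZnF4-/- than in ZnF1-/-, and 0 between ZnF1-/- and wild type, where 10.1%, 9.17% and 3.85% of all tested genes did. With the block, 4 rose and 1 fell in ZnF4-/- against wild type, where 8.22% of all tested genes were called. Notch1 encodes the receptor most often mutated in the disease. It was at 34.6, 63.2 and 49.6 RPKM in wild type replicates 1, 2A and 2B, 31.1 and 53.8 RPKM in ZnF1-/-, and 82.5 and 93.0 RPKM in ZnF4-/- (blocked difference from wild type 0.96, adjusted p = 0.00871, in 10 of 11 blocked fits). Both ZnF4-/- libraries were the highest. Etv6, an ETS repressor gene, rose by 0.62 (adjusted p = 0.00769, in all 11) and Jak3, a kinase of cytokine receptors, by 0.73 (adjusted p = 0.0142, in 10 of 11). Il7r, on both lists, is given above. Ccnd3, the cyclin D3 gene, fell by 0.47 on the log2 scale (adjusted p = 0.0459, in 5 of 11). Between the mutants, Notch1 and the cyclin gene Ccnd2 were called higher in ZnF4-/- with the block, by 1.09 (adjusted p = 0.00750, in 10 of 11) and 0.94 (adjusted p = 0.0105, in 9 of 11). That comparison called 7.29% of all tested genes with the block.

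Hoxa7, a homeobox gene of progenitors, stood out in the early list after its values were seen. It was at 0.74, 1.76 and 1.08 RPKM in wild type and 0.63 and 1.03 RPKM in ZnF1-/-, and was listed at 0.00 and 0.01 RPKM in ZnF4-/-. Its mean was under the filter. In the fit without a filter its adjusted p in ZnF4-/- against wild type was 0.0230 (0.0120 with the block).

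Genes whose levels followed Kit, Cd44 and Myb most closely were found by correlation over the 7 libraries after centring each batch, as a description. Nearest to Kit were Rgl1 (r = 0.998), Ppic (0.997) and Tbc1d4 (0.997). Ppic, a cyclophilin gene, went from 0.69, 0.84 and 0.73 RPKM in wild type to 2.20 and 1.88 RPKM in ZnF1-/- and 7.51 and 8.94 RPKM in ZnF4-/-. Nearest to Cd44 were Pygb (0.989), A730008H23Rik (0.988) and Ccdc109b (0.987), and nearest to Myb were Pld4 (0.998), Psmc6 (0.995) and Slc25a12 (0.995). With 7 libraries high values are common. Among the 10497 other tested genes 161 had r above 0.95 with Kit, 42 with Cd44 and 138 with Myb.

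Markers of other cells moved with some of these differences. In bulk tissue, fewer cells of a type and less RNA per cell cannot be told apart. The summed level of 9 erythroid genes was 96.1 to 117 RPKM in ZnF4-/-, above 23.5 to 59.5 in wild type and 20.8 to 56.5 in ZnF1-/-, with 2 of 5 tested members (Hbb-b1 and Hbb-b2, near-identical globin copies) called higher than wild type with the block. These 2 held most of the sum. Hba-a1, at 2.40 and 7.60 RPKM in ZnF4-/-, overlapped wild type (1.87 to 3.15 RPKM), and Epor was lower, at 0.00 and 0.05 RPKM against 0.11 to 0.13. The summed level of 5 platelet genes was 2.29 to 4.48 RPKM in ZnF4-/-, 0.48 to 2.17 in wild type and 0.43 to 2.91 in ZnF1-/-. The 1 tested member, Pf4, was called higher with the block (adjusted p = 0.0441, limma) but not without it (adjusted p = 0.842). Its ZnF4-/- values, 1.61 and 3.84 RPKM, overlapped wild type (0.25 to 1.82 RPKM). For 8 myeloid genes the sum was 84.4 to 94.0 RPKM in ZnF4-/-, 42.3 to 59.5 in wild type and 33.1 to 55.5 in ZnF1-/-, with 0 of 7 tested members called against wild type. Lyz2 held most of that sum, at 56.8 and 73.9 RPKM in ZnF4-/- and 26.5 to 39.9 in wild type. Of the 8, 2 did not overlap wild type (Lyz2 and, only just, Itgam, both higher). Mpo and Elane were above wild type in ZnF4 replicate 1 (5.94 and 4.03 RPKM) and below it in replicate 2 (0.50 and 0.33 RPKM).

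Mast cells carry KIT throughout life. Their 5 markers summed to 4.49 to 4.57 RPKM in ZnF4-/-, 2.29 to 4.04 in wild type and 2.63 to 4.60 in ZnF1-/-, and nearly all of it was Cpa3, which progenitors also express. Of the defining mast cell genes, Fcer1a was listed at 0.04 RPKM or less and Mcpt4 and Tpsb2 at 0.13 RPKM or less. Ms4a2 was at 0.16 and 0.06 RPKM in ZnF4-/- and 0.00 to 0.01 RPKM in the other 5 libraries, separate in the direction of Kit (adjusted p = 0.121 in the fit without a filter). In the direction of Myb, the thymocyte gene Cd8a was called lower in ZnF4-/- than in wild type with the block, and the list of 12 thymocyte genes summed to 3703 to 4296 RPKM there, 4185 to 5183 in wild type and 4659 to 5194 in ZnF1-/-. In ZnF1-/-, where Cd44 was highest, the B cell gene Cd79b was called higher with the block and Cd79a lower. The 7 B cell genes summed to 26.7 to 35.9 RPKM in ZnF1-/-, 19.3 to 24.6 in wild type and 15.0 to 19.3 in ZnF4-/-. The part of these cells in the differences of Kit, Cd44 and Myb was not tested.

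**Figure D4:**
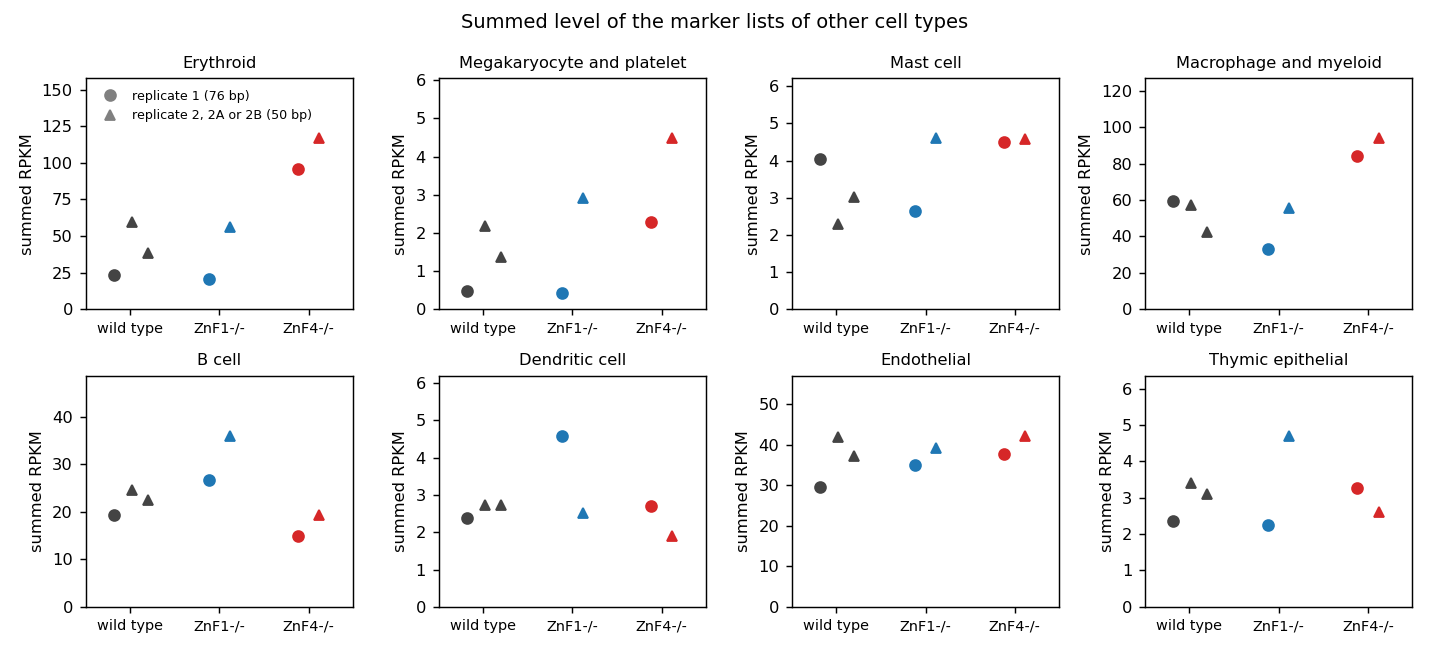
Summed RPKM (vertical axis, linear from 0) of the marker genes of 8 other cell types in each library, by genotype, with circles for 76 bp and triangles for 50 bp libraries. Both ZnF4-/- libraries are above all others for the erythroid list, at 96.1 and 117 RPKM, and the myeloid list, at 84.4 and 94.0 RPKM. Hbb-b1 and Hbb-b2 hold most of the erythroid sum there, and Lyz2 most of the myeloid sum.

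Endothelial, dendritic and epithelial markers were low. Of the endothelial list Kdr, Tek, Tie1 and Vwf were at or below 0.15 RPKM, Cdh5 was at 0.22 to 0.88 RPKM in the mutants and 0.04 to 0.16 in wild type, and Pecam1, also made by blood cells, held most of the sum. The 6 dendritic cell genes summed to at most 4.58 RPKM, and 6 of 7 epithelial genes were under 1 RPKM in every library. Rag1, Cd3e, Cd4 and Cd8a genes of thymocytes, were at 302 RPKM or more in every library.

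Ikzf1 itself was at 142 to 175 RPKM in wild type, 183 and 194 in ZnF1-/- and 238 and 257 in ZnF4-/-. Gene-wide RPKM cannot reveal a missing finger, and the labels are not checked by it. Xist was at 90.6 to 109 RPKM in the replicate 1 libraries and at most 0.03 in the others, with Ddx3y the reverse, so sex and read length change together and the block removes both. Read totals are not in the table. Steps in the low values put the 76 bp libraries at about 20190000 reads in wild type, 14270000 in ZnF1-/- and 6310000 in ZnF4-/-, from 31.4% to 57.1% of low values on a whole-read step where 9.16% to 10.5% would be by chance. No depth could be estimated for the 50 bp libraries. On that estimate Kit rests on 212, 197 and 135 reads in the 3 libraries, and the intervals cover counting error only.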

How the data were processed

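RNA-seq of whole thymus was analysed in 3 wild type, 2 Ikaros ZnF1-/- and 2 Ikaros ZnF4-/- libraries. The authors deposited RPKM per gene from exonic reads counted in SeqMonk on the NCBI annotation, per the labels and series text. Alignment used TopHat to mm9 and bedtools, per the submitters' processing notes. Versions, strand and read totals are not given in the sources used here. For the comparisons, log2(RPKM + 0.5) of the 10498 genes that averaged 1 RPKM or more was fitted with limma 3.58.1 (lmFit, eBayes with trend, R 4.3.3) over all 7 libraries. P-values are two-sided and adjusted by Benjamini-Hochberg over the tested genes, with a threshold of 0.05 (4 residual and 3.26 prior degrees of freedom). No count test was possible, and an exact permutation of 3 against 2 libraries cannot give a p below 0.1. The replicate number marks a batch in the labels, so blocked values are given where they change a call. Same-numbered libraries of different groups also deviated together from their group means (r from 0.489 to 0.737 in 8 pairs). The 2 libraries of a mutant deviate from their mean by equal and opposite amounts, so the 8 pairs are not independent. The labels do not say that replicates are separate animals, and p-values measure the spread between these samples. Alternatives were the pseudocount, filter, scaling, prior variance, groups fitted, wild type 2A and 2B averaged, and each library left out. An added set ran with the block, chosen after seeing the data: no filter, 2 scalings and each library left out. Positions are from GENCODE on mm9 and promoters from RefSeq on GRCm38.p6. The scripts were tested on simulated data. The genes and lists were chosen with earlier results of these data known. Named genes are all 9, those of the other lists past the threshold (at most 6 a list and comparison), the highest markers (some marker genes are not reported here), and the 3 genes closest to each called gene.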

Additional observations from a re-analysis of the deposited data

How the results depend on the processing

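Read depth could be estimated for the 76 bp libraries only, and its part in the results of the genes below 1 RPKM was not tested. Each mutant had only 2 libraries, and the power of the unblocked fit with 1 library removed was not computed. The number of the 9 genes past the threshold in ZnF1-/- against wild type, ZnF4-/- against wild type and ZnF4-/- against ZnF1-/- was 0, 1 and 0 without the replicate block and 1, 2 and 2 with the block. In ZnF4-/- against wild type without the block it was 0 with only the compared groups fitted (Kit adjusted p = 0.0538), 0 with wild type 2A and 2B averaged (0.104), and 0 on leaving out each library in turn. With the block and no filter the 3 counts were 0, 1 and 0. With the block the last count was 1 under quantile normalization and 3 under scaling to a common median. With the block, leaving out each library in turn gave 0 to 1, 1 to 2 and 0 to 3. The cause was not tested. Directions held for the tested genes except for 2 that were not called. Lyl1 in ZnF4-/- against wild type was -0.0345 with quantile normalization and -0.029 with quantile normalization and the block, against 0.14, and ran from -0.18 to 0.56 on leaving out libraries. Myb in ZnF1-/- against wild type ran from -0.25 to 0.033 on leaving out libraries. Genes under the filter could change sign with no test.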

Other observations

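A pair of genes, from the early list and the dendritic cell list, had low values that were separate in ZnF4-/- and were chosen after their values were seen. Igll1, the surrogate light chain gene of early lymphoid cells, was at 0.13, 0.14 and 0.13 RPKM in wild type 1, 2A and 2B, 0.08 and 0.10 RPKM in ZnF1-/- and 0.89 and 0.35 RPKM in ZnF4-/-. Siglech, a gene of plasmacytoid dendritic cells, was at 0.53, 0.96 and 0.53 RPKM in wild type, 1.32 and 0.75 RPKM in ZnF1-/- and 0.16 and 0.06 RPKM in ZnF4-/-. Both were under the filter on low values. In the limma fit without a filter neither was called in ZnF4-/- against wild type. The adjusted p was 0.0968 for Igll1 and 0.106 for Siglech (0.0727 and 0.0812 with the block).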
